A study of Mus musculus with 6 samples.

Results

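The genes that A20 cells use to process antigen and to present it on MHC molecules were followed through the RNA-seq of 3 groups. The set held 39 mouse genes, chosen by symbol for their known roles in the class I and class II pathways and matched by Entrez gene identifier, among 27179 genes counted. Earlier results of these data were known when the set was chosen, so its shares beside all genes are a description. Of the 39 genes, 38 passed the filter on low counts and were tested together with 12430 genes in all, and Cd1d1, the CD1 molecule that presents lipid antigens, did not, with counts of 0 and 0 in wild type, 1 and 3 in control sgRNA cells and 3 and 1 in Cd4 sgRNA cells.

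A20 cells derive from a B lymphoma of a BALB/c mouse. Wild-type A20 carried no vector and no sgRNA. The control sgRNA and Cd4 sgRNA groups both carried TETact-v3, in which a catalytically dead Cas9 bears GCN4 epitopes that recruit the catalytic domain of TET1, an enzyme of DNA demethylation, while MS2 aptamers in the sgRNA recruit the p65-hsf1 activator. The sgRNA was a non-targeting control in the former group and was directed at the Cd4 promoter in the latter. All constructs were delivered by lentivirus and the cells were enriched by flow cytometry, so that each transduced group was a sorted population and not 1 clone, and RNA of the transduced cells was taken on day 7 after sgRNA transduction. Transduction, sorting and the activator proteins cannot be told apart in a comparison with wild type. Each group had 2 biological replicates.

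Class II molecules display peptides made in endosomes to CD4+ T cells. Their alpha and beta chains assemble with the invariant chain Cd74, which endosomal proteases degrade before H2-DM exchanges the last Cd74 fragment for antigenic peptide. Class I molecules display peptides cut by the proteasome, carried into the endoplasmic reticulum by Tap1 and Tap2 and bound to a heavy chain with B2m. B cells are professional antigen presenting cells that express class II constitutively under Ciita, which acts on genes already bound by the RFX complex, and Nlrc5 is its counterpart at class I genes.

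More of the genes were lower than higher against wild type. Among the 38 genes tested in control sgRNA cells, 13 were lower and 2 higher than in wild type, that is 34.2% and 5.26%, beside 13.6% lower and 15.7% higher among all genes tested (edgeR's quasi-likelihood test, adjusted p under 0.05). In Cd4 sgRNA cells, 15 were lower and 5 higher, that is 39.5% and 13.2%, beside 11.8% and 11.3% of all genes. The median log2 fold change of the 38 genes was -0.20 in control sgRNA and -0.22 in Cd4 sgRNA cells, whereas the median of all genes tested was 0.00 in both comparisons. These comparisons share the wild-type libraries and are given side by side, not as independent observations. Between Cd4 sgRNA and control sgRNA cells, 0 of the 38 genes passed the threshold in either direction, as did 0.0161% of all genes higher and 0.0563% lower.

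The libraries held from 23194920 to 121623410 counts, with the control sgRNA libraries the deepest, and a count of 3, taken as the detection floor, was worth at most 0.14 CPM (counts in a library scaled to a common total by TMM). The targeted gene Cd4 had 30959 and 40422 counts with the Cd4 sgRNA and no more than 127 in any other library. All 9 B cell markers were above the floor in every library, with a summed level of 2576 and 2622 CPM in wild type and 1674 to 2040 CPM in the transduced groups. Of these 9 markers 4 were lower in control sgRNA cells and 4 in Cd4 sgRNA cells, and the part of such a general change in the results below was not tested. Of 5 plasma cell markers, Irf4 (log2 fold changes 1.82 and 1.69) and Sdc1 (0.73 and 0.93) were higher in control sgRNA and Cd4 sgRNA cells. Prdm1 was higher in control sgRNA cells (2.43, adjusted p = 0.0233, with 9.29 and 33.0 CPM) and not called in Cd4 sgRNA cells (1.08, adjusted p = 0.209). Xbp1 was lower in both groups (-0.60 and -0.50) and Jchain was called in neither (-0.17 and -0.55). The part of these plasma cell genes in the results below was not tested. None of the 6 T cell markers and 5 of 12 macrophage and dendritic cell markers passed the filter, and Cd14, Cd3e and Cd8b1 had 0 counts in every library. The share of counts from mitochondrial genes was 2.65% and 2.69% in wild type, 5.96% and 6.90% in Cd4 sgRNA, and 6.63% and 11.5% in control sgRNA cells. The control sgRNA replicates stood further apart than the others, with a median absolute log2 difference between replicates of 0.28 over all genes tested, against 0.081 in wild type and 0.085 in Cd4 sgRNA cells. Of the 38 antigen presentation genes, 28 were higher in control sgRNA replicate 2 than in replicate 1. Among them were H2-Oa (0.92 on the log2 scale), Cd74 (0.78) and Ctsb (0.63). Counts of calls, and the values of some genes, are therefore also given without each control sgRNA library. With each library left out in turn, the control sgRNA log2 fold change of Cd74 against wild type ran from -0.65 to 0.16. It ran from -0.55 to -0.08 for H2-Ab1, from -0.97 to -0.39 for H2-Ob and from -0.95 to -0.31 for B2m.

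**Figure D1:**
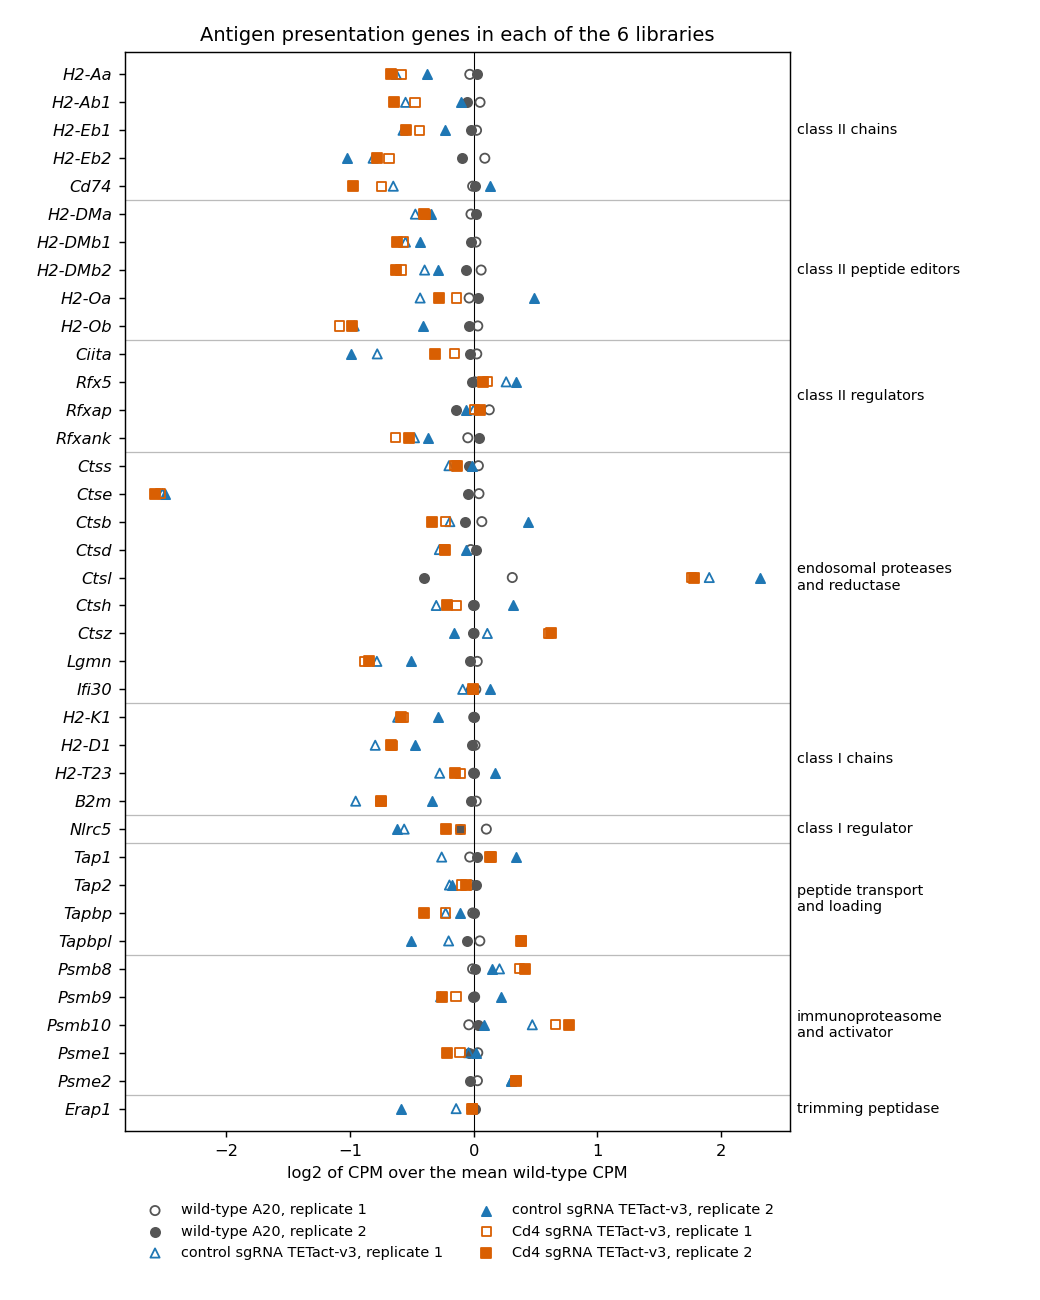
Level of each of the 38 tested genes in each library, as the log2 of its CPM over the mean wild-type CPM (horizontal axis), with wild-type A20 as circles, control sgRNA TETact-v3 as triangles and Cd4 sgRNA TETact-v3 as squares, open for replicate 1 and filled for replicate 2. Ctse lies near -2.5 and Ctsl near 2 in all 4 transduced libraries, and the class II chains other than Cd74 lie below 0 in all 4.

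Compared per kilobase of gene length, the wild-type level spanned from 3885 CPM per kilobase for Cd74 to 0.844 for Ctsl. Cd74 was followed by H2-Aa at 1243 and H2-Ab1 at 646 CPM per kilobase, and by B2m at 470.0. The regulators were far down the order, with Ciita at 24.2, Rfxap at 13.7, Rfxank at 8.27, Rfx5 at 5.40 and Nlrc5 at 1.37 CPM per kilobase. H2-Eb2, a second beta chain of the E molecule, was at 4.90 against 205 for H2-Eb1. The 39 genes together took 1.29% and 1.27% of the counts of wild type, 0.907% and 1.17% of those of control sgRNA, and 0.955% and 0.88% of those of Cd4 sgRNA cells.

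**Figure D2:**
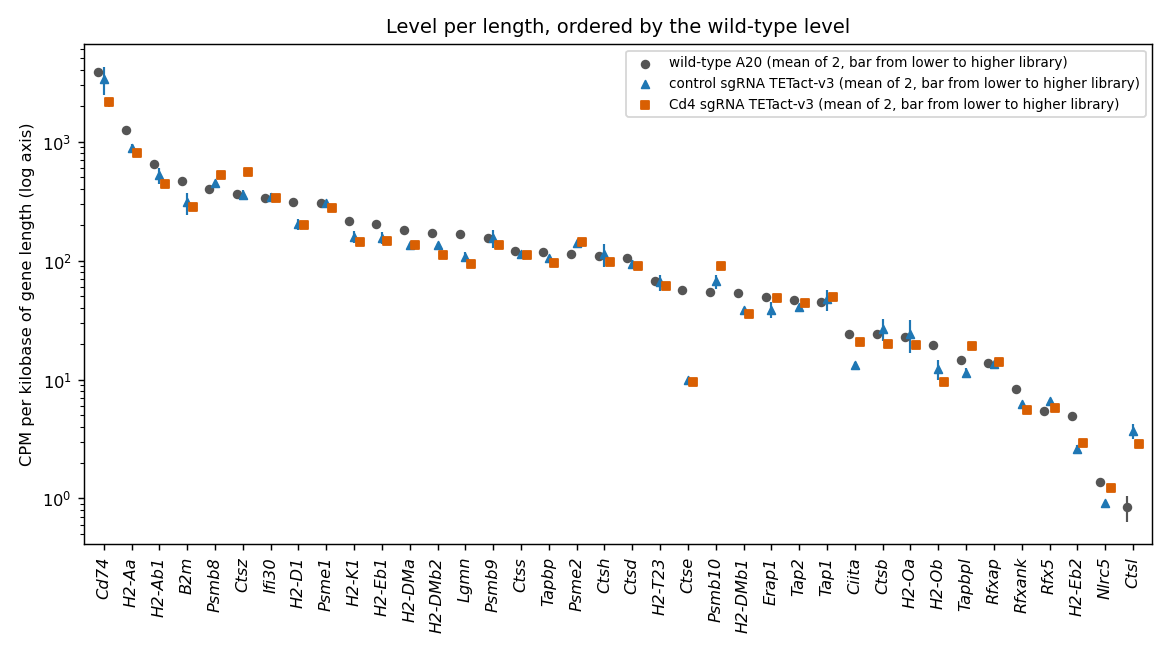
Mean CPM per kilobase of gene length on a log axis for the 38 tested genes, ordered by the wild-type mean, with bars from the lower to the higher of the 2 libraries of a group. Levels run from 3885 CPM per kilobase (Cd74) to 0.844 (Ctsl) in wild type, and Ctse drops from 56.3 to 9.90 and 9.59 in control sgRNA and Cd4 sgRNA cells.

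Of the 5 class II chains, 2 were lower than in wild type in control sgRNA cells (H2-Aa and H2-Eb2) and 5 in Cd4 sgRNA cells, where the calls of H2-Ab1, H2-Eb1 and Cd74 were lost in some alternative fits. H2-Aa, the alpha chain of the A molecule, had 1301 and 1357 CPM in wild type, 862 and 1026 CPM in control sgRNA, and 886 and 837 CPM in Cd4 sgRNA libraries. All 4 transduced libraries lay below both wild-type libraries. The log2 fold change of H2-Aa was -0.49 in control sgRNA (standard error 0.11, adjusted p = 0.0207) and -0.63 in Cd4 sgRNA cells (standard error 0.11, adjusted p = 0.0131). Its partner H2-Ab1, the beta chain, had 799 and 742 CPM in wild type, 526 and 716.5 CPM in control sgRNA and 555 and 494 CPM in Cd4 sgRNA libraries. It fell by 0.56 on the log2 scale in Cd4 sgRNA cells (adjusted p = 0.049), while the log2 fold change of -0.31 in control sgRNA cells had an adjusted p of 0.18. The Cd4 sgRNA call of H2-Ab1 was lost with voomLmFit, the study's test, with a replicate block, with library size scaling, with at least 10 counts in every library and with libraries thinned to the smallest (largest adjusted p = 0.0786). The per-length ratio of H2-Aa to H2-Ab1 was 1.82 and 2.04 in wild type and between 1.60 and 1.89 in the transduced libraries.

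H2-Eb1, the beta chain of the E molecule, had 347 and 336 CPM in wild type, 230.1 and 291 CPM in control sgRNA and 252 and 234 CPM in Cd4 sgRNA libraries. Its log2 fold change was -0.49 in Cd4 sgRNA cells (adjusted p = 0.0382) and -0.39 in control sgRNA cells (adjusted p = 0.0622). The former call of H2-Eb1 was lost with a replicate block and with library size scaling (largest adjusted p = 0.0635). H2-Eb2 had 17.7 and 15.5 CPM in wild type, 9.44 and 8.15 CPM in control sgRNA and 10.3 and 9.62 CPM in Cd4 sgRNA libraries. Both groups lay well below wild type, and it fell by 0.92 on the log2 scale in control sgRNA (adjusted p = 0.00618) and by 0.74 in Cd4 sgRNA cells (adjusted p = 0.0156). Cd74 was the gene of this class in which the control sgRNA libraries disagreed most. It had 5468 and 5526 CPM in wild type, 3505 and 6032 CPM in control sgRNA and 3281 and 2792 CPM in Cd4 sgRNA libraries. Control sgRNA replicate 1 was thus near the Cd4 sgRNA libraries and replicate 2 above wild type. Cd74 fell by 0.86 on the log2 scale in Cd4 sgRNA cells (standard error 0.24, adjusted p = 0.0495), close to the threshold. This call of Cd74 was lost in 5 alternatives, voomLmFit and the replicate block among them (largest adjusted p = 0.0697). For control sgRNA cells the value was -0.21 with the same standard error (adjusted p = 0.552).

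Of the 5 genes for the peptide editors, 4 were lower in each transduced group. H2-DMa and the H2-DMb genes encode the H2-DM heterodimer that loads peptide, and H2-Oa and H2-Ob encode H2-O, which restrains H2-DM in B cells. H2-DMa had 138 and 142 CPM in wild type, 101 and 110.0 CPM in control sgRNA and 107 and 106 CPM in Cd4 sgRNA libraries. H2-DMb1 had 69.7 and 67.9 CPM in wild type, 46.9 and 51.1 CPM in control sgRNA and 46.4 and 44.8 CPM in Cd4 sgRNA libraries. H2-DMb2 had 139 and 128 CPM in wild type, 102 and 109 CPM in control sgRNA and 88.9 and 86.7 CPM in Cd4 sgRNA libraries. In each of these 3 genes the transduced libraries were all below wild type. The log2 fold changes in control sgRNA and Cd4 sgRNA cells were -0.41 and -0.39 for H2-DMa (adjusted p = 0.0169 and 0.0233), -0.49 and -0.59 for H2-DMb1 (adjusted p = 0.0103 and 0.00802) and -0.34 and -0.61 for H2-DMb2 (adjusted p = 0.0338 and 0.00812). H2-DMb1 and H2-DMb2 are neighbours of similar sequence. Of their 66-base transcript stretches, 17.7% and 18.8% occur in another gene, so their counts were also summed. The sum fell by 0.39 on the log2 scale in control sgRNA (adjusted p = 0.0209) and by 0.60 in Cd4 sgRNA cells (adjusted p = 0.00779).

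H2-O behaved unevenly. H2-Ob had 53.0 and 50.6 CPM in wild type, 26.5 and 39.0 CPM in control sgRNA and 24.5 and 26.3 CPM in Cd4 sgRNA libraries. It fell by 0.66 on the log2 scale in control sgRNA (adjusted p = 0.0375) and by 1.03 in Cd4 sgRNA cells (adjusted p = 0.0132), the latter the largest decrease in this class. H2-Oa ranged from 17.5 to 33.3 CPM over the 6 libraries, both extremes being control sgRNA libraries, and was not called in either group, with log2 fold changes of 0.10 and -0.21 (adjusted p = 0.808 and 0.619).

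Of the 4 class II regulators, 2 were lower in control sgRNA and 1 in Cd4 sgRNA cells, and Ciita was the gene in which the transduced groups differed most from each other among them. Ciita had 140.0 and 135 CPM in wild type, 80.2 and 69.3 CPM in control sgRNA and 124 and 111 CPM in Cd4 sgRNA libraries. The 3 groups did not overlap, with control sgRNA lowest and Cd4 sgRNA between it and wild type. Ciita fell by 0.88 on the log2 scale in control sgRNA cells (standard error 0.11, adjusted p = 0.00349), and its log2 fold change in Cd4 sgRNA cells was -0.23 (standard error 0.11, adjusted p = 0.163). The span of Ciita overlaps that of Dexi, and since the sources used here do not say whether strand was used, reads of the overlap cannot be told apart.

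The RFX complex binds the X box of class II promoters and has 3 subunits. Rfxank had 29.5 and 31.4 CPM in wild type, 21.9 and 23.6 CPM in control sgRNA and 19.6 and 21.3 CPM in Cd4 sgRNA libraries. It fell by 0.42 (adjusted p = 0.0276) and 0.57 (adjusted p = 0.0142) on the log2 scale, and its span overlaps that of Nr2c2ap. Rfx5, the largest subunit, had 22.8 and 22.5 CPM in wild type, 27.1 and 28.7 CPM in control sgRNA and 24.5 and 23.9 CPM in Cd4 sgRNA libraries. Its log2 fold change in control sgRNA cells was 0.30 and did not pass the threshold (adjusted p = 0.0536). Rfxap had 32.3 and 26.9 CPM in wild type, 29.6 and 28.3 CPM in control sgRNA and 29.7 and 30.6 CPM in Cd4 sgRNA libraries. Its wild-type libraries enclosed those of the transduced groups, with log2 fold changes of -0.04 and 0.02 (adjusted p = 0.839 and 0.892).

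The RefSeq promoter windows of 6 of the 11 members that were lower in both groups are shown here because MHC promoters share sequence elements, among them the Y box (CCAAT), which the NF-Y factor binds beside the X box. Windows are the 250 bases before an annotated start, 5′ to 3′ on the strand of the gene, in GRCm38.p6, whose sequence is that of C57BL/6J and not of BALB/c, the strain of A20. Capitals mark CCAAT or its reverse complement ATTGG, and GAAANNGAA, the core of an interferon response element, or its reverse complement.
H2-Aa, chr17:34287824-34288073, minus strand: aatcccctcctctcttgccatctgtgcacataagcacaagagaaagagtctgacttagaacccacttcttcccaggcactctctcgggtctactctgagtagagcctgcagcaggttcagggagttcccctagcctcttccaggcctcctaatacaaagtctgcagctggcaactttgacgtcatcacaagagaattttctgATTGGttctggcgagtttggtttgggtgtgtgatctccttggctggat
H2-Eb2, chr17:34325425-34325674, plus strand: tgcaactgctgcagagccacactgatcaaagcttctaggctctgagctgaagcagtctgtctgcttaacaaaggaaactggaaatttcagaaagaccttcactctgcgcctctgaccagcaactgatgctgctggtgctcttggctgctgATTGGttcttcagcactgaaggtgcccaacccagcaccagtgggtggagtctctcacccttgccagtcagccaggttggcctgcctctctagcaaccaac
H2-DMb1, chr17:34152941-34153190, plus strand: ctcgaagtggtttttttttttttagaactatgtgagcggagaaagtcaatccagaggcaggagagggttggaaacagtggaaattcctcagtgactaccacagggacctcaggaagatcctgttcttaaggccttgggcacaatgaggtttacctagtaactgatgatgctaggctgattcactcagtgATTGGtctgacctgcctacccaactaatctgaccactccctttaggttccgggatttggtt
H2-DMb2, chr17:34144999-34145248, plus strand: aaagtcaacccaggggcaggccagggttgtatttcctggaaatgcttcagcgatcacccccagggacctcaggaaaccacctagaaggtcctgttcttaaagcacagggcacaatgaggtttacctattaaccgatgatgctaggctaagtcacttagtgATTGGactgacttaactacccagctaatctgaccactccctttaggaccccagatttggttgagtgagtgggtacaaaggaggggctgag
H2-Ob, chr17:34238655-34238904, plus strand: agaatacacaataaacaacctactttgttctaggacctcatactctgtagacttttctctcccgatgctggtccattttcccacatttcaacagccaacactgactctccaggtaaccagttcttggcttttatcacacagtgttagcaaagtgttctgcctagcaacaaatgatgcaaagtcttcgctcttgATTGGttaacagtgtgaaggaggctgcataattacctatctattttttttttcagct
H2-D1, chr17:35262844-35263093, plus strand: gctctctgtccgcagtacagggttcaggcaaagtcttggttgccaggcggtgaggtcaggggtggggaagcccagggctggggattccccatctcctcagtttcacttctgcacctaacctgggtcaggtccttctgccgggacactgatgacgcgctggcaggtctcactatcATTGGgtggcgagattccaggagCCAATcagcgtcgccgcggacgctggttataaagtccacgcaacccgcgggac
Each of these 6 windows holds the ATTGG form beginning between 48 and 100 bases before the start, and that of H2-D1 also holds CCAAT. The 6 were chosen with the motif positions known. Of the others that were lower in both groups, H2-DMa had it 198 bases before 1 of its 2 starts and not before the other, H2-K1 within 30 bases of its starts, Lgmn in 1 of 2 windows and Rfxank in its window, and Ctse had no window.

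The windows of B2m, which was lower in Cd4 sgRNA cells, and of Psmb8, an immunoproteasome subunit that was higher there, are shown next. B2m holds ATTGG and an interferon response core, and Psmb8 holds neither marked motif.
B2m, chr2:122147437-122147686, plus strand: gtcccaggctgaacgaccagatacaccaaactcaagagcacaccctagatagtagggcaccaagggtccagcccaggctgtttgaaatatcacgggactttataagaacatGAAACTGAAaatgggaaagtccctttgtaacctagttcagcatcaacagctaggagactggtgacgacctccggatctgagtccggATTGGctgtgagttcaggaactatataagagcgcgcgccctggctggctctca
Psmb8, chr17:34197945-34198194, plus strand: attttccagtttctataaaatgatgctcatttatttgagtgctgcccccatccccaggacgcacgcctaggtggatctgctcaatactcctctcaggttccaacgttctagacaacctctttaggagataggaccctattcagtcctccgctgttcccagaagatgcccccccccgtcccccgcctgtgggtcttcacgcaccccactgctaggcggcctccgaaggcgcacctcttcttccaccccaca
Over the 28 members whose windows were searched, CCAAT on either strand was in 20 of 32 windows (62.5%), that is in 19 genes, and in 33.85% of all 32851 promoter windows of that length. Cd74, H2-Ab1, Ciita and Nlrc5, each lower in 1 group, were not among the 28, so their promoters were not tested. TGACG, the core of the X2 box, was in 34.4% of the members' windows and 17.8% of all. GGNNNTTCC, the core of a kB site, was in 34.4% and 15.7%. CACGTG, an E box, was in 18.8% and 6.02%, and GAAANNGAA was in 12.5% and 7.13%. By call, CCAAT was in a window of 10 of 10 members lower in both groups that had one, of 1 of 5 members higher in at least 1 group (Ctsz), and of 6 of 11 called in neither (H2-Oa, Rfx5, H2-T23, Tap1, Tapbp and Psmb9), so it was not confined to genes that fell. All motifs were searched on both strands, matches of different motifs could overlap, and a match is a description of the letters and not a bound site.

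Among the endosomal proteases and the thiol reductase Ifi30, most levels did not pass the threshold, but Ctse and Ctsl showed the largest decrease and the largest increase of the 38 genes tested in both comparisons with wild type. Ctse, an aspartic protease of the endosome, had 123 and 116 CPM in wild type, 20.9 and 21.1 CPM in control sgRNA and 20.7 and 20.02 CPM in Cd4 sgRNA libraries. The 4 transduced libraries agreed closely and lay far below wild type. It fell by 2.51 on the log2 scale in control sgRNA (standard error 0.089, adjusted p = 0.000108) and by 2.55 in Cd4 sgRNA cells (standard error 0.090, adjusted p = 0.000087). Ctsl, which degrades the invariant chain in thymic epithelium, had 2.07 and 1.26 CPM in wild type, 6.23 and 8.28 CPM in control sgRNA and 5.65 and 5.72 CPM in Cd4 sgRNA libraries. It rose from the lowest level per length of the 38 genes by 2.08 (adjusted p = 0.00409) and 1.72 on the log2 scale (adjusted p = 0.00958). The wild-type libraries held 96 and 27 counts of Ctsl.

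Lgmn, the asparaginyl endopeptidase, had 322 and 309 CPM in wild type, 183 and 222 CPM in control sgRNA and 172 and 176 CPM in Cd4 sgRNA libraries. It fell by 0.64 (adjusted p = 0.00952) and by 0.86 on the log2 scale (adjusted p = 0.00546), with all transduced libraries below wild type. Ctsz, a carboxypeptidase, separated the transduced groups. It had 503 and 500.0 CPM in wild type, 541 and 449 CPM in control sgRNA and 761 and 774 CPM in Cd4 sgRNA libraries, and rose by 0.61 on the log2 scale in Cd4 sgRNA cells against wild type (adjusted p = 0.0132). Its value in control sgRNA cells was -0.02 (adjusted p = 0.921). The span of Ctsz overlaps that of Nelfcd. Ctss, the main protease of the invariant chain in B cells, ranged from 143 to 169 CPM over the 6 libraries, Ctsd from 170.2 to 209 CPM, Ctsb from 90.3 to 154 CPM, Ctsh from 144 to 222 CPM and Ifi30 from 312 to 362 CPM. None of these 5 was called against wild type. The stretches of Ctsd occur in another gene model, Gm49369, for 31.7%, which makes its count uncertain.

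The class I heavy chains H2-K1 and H2-D1 were lower in both transduced groups. H2-K1 had 355 and 354 CPM in wild type, 232 and 289.6 CPM in control sgRNA and 239 and 236 CPM in Cd4 sgRNA libraries. H2-D1 had 547 and 539 CPM in wild type, 313 and 389.8 CPM in control sgRNA and 344 and 342 CPM in Cd4 sgRNA libraries. In both genes the 4 transduced libraries were below the wild-type ones. H2-K1 fell by 0.44 (adjusted p = 0.0363) and 0.58 on the log2 scale (adjusted p = 0.0203), and H2-D1 by 0.63 (adjusted p = 0.0124) and 0.66 (adjusted p = 0.0138). The control sgRNA call of H2-K1 was lost with library size scaling, a replicate block or only the compared groups (largest adjusted p = 0.0933). Class I genes are a family of similar sequence, and 4.50% of the 66-base stretches of H2-K1 and 6.45% of those of H2-D1 occur in another gene. A sum of 15 heavy chain genes of the H2-K, H2-D, H2-Q, H2-T and H2-M groups fell by 0.43 in control sgRNA (adjusted p = 0.0493) and by 0.55 in Cd4 sgRNA cells (adjusted p = 0.0299). The reads were aligned to C57BL/6J alleles in all 6 libraries, and how many reads of the BALB/c alleles were lost at each gene was not tested.

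B2m, the light chain common to class I molecules, had 409 and 397 CPM in wild type, 208 and 320.0 CPM in control sgRNA and 240.1 and 240.5 CPM in Cd4 sgRNA libraries. It fell by 0.75 on the log2 scale in Cd4 sgRNA cells (adjusted p = 0.0363), while its log2 fold change of -0.61 in control sgRNA cells just missed the threshold (adjusted p = 0.0547). Its span overlaps that of Patl2. H2-T23, the non-classical chain Qa-1, ranged from 73.4 to 99.9 CPM, both in control sgRNA libraries, and was not called in either group. Nlrc5, the class I transactivator, had 10.2 and 8.83 CPM in wild type, 6.46 and 6.22 CPM in control sgRNA and 8.85 and 8.18 CPM in Cd4 sgRNA libraries. Like Ciita it was lowest in control sgRNA cells, where it fell by 0.59 on the log2 scale (adjusted p = 0.0254), and its log2 fold change in Cd4 sgRNA cells was -0.17 (adjusted p = 0.425). In bulk RNA, fewer cells that express a gene and less RNA per cell cannot be told apart.

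Among the 38 genes tested, none of those that make, carry and load class I peptides was called lower in either group. Of all genes tested, 13.6% were lower in control sgRNA and 11.8% in Cd4 sgRNA cells. For so few genes, no call is near those shares. The wider list read below held 7 other proteasome genes. They were the constitutive counterparts Psmb5, Psmb6 and Psmb7, the activators Psme3 and Psme4, the assembly factor Pomp and the inhibitor Psmf1. Of these, Pomp (log2 fold change -0.58, adjusted p = 0.0108) and Psmf1 (-0.55, adjusted p = 0.0164) fell with the control sgRNA. Psme4 rose with the control sgRNA (0.51, adjusted p = 0.00788) and the Cd4 sgRNA (0.41, adjusted p = 0.0199). The others of the 7 were not called. None of Tap1, Tap2, the loading factor Tapbp (tapasin) and its relative Tapbpl was called against wild type, and their log2 fold changes ran from -0.35 to 0.08 in control sgRNA and from -0.31 to 0.39 in Cd4 sgRNA cells. Over the 6 libraries Tap1 ranged from 111 to 168 CPM, Tap2 from 102 to 118 CPM, Tapbp from 248 to 329 CPM and Tapbpl from 21.3 to 39.5 CPM. Erap1, which trims peptides in the endoplasmic reticulum, ranged from 131 to 199 CPM and was not called. Of the 3 immunoproteasome subunits, Psmb10 had 67.3 and 71.0 CPM in wild type, 96.1 and 73.3 CPM in control sgRNA and 109 and 118 CPM in Cd4 sgRNA libraries. It rose by 0.72 on the log2 scale in Cd4 sgRNA cells (adjusted p = 0.0172), and its value of 0.29 in control sgRNA cells was not called (adjusted p = 0.158). Psmb8 ranged from 486 to 653 CPM, with the Cd4 sgRNA libraries highest, and rose by 0.39 in Cd4 sgRNA cells (adjusted p = 0.0202). Psmb9 ranged from 103 to 145 CPM and was not called. The proteasome activator subunit Psme2 had 114 and 109 CPM in wild type, 138 and 137 CPM in control sgRNA and 141.1 and 141.4 CPM in Cd4 sgRNA libraries, and rose by 0.31 (adjusted p = 0.0326) and 0.34 (adjusted p = 0.0275). Stretches of Psme2 occur in the related Psme2b for 24.6%. Its partner Psme1 ranged from 259 to 307 CPM and was not called.

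The immunoproteasome subunits replace constitutive ones, and their per-length ratios were compared as a description. The ratio of Psmb10 to its counterpart Psmb7 was 0.208 and 0.217 in wild type, 0.251 and 0.244 in control sgRNA, and 0.299 and 0.294 in Cd4 sgRNA libraries, 3 ranges that did not overlap. For Psmb8 over Psmb5 the ratio was 1.95 and 2.07 in wild type, 1.91 and 2.42 in control sgRNA and 2.24 and 2.17 in Cd4 sgRNA libraries. For Psmb9 over Psmb6 it was 0.914 and 0.908 in wild type, 0.665 and 1.21 in control sgRNA and 0.681 and 0.577 in Cd4 sgRNA libraries. The control sgRNA libraries enclosed the wild-type ones in the latter 2 ratios. The ratio of Psme1 to Psme2 was 2.70 and 2.69 in wild type, 2.12 and 2.22 in control sgRNA and 1.97 and 1.83 in Cd4 sgRNA libraries.

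The genome places 17 of the tested members in the MHC on chromosome 17, from 33919478 to 36032701. Of these 17, 8 were lower and 0 higher in control sgRNA cells, and 10 were lower and 1 higher in Cd4 sgRNA cells. Of the 21 on other chromosomes, 5 were lower and 2 higher in control sgRNA cells, and 5 were lower and 4 higher in Cd4 sgRNA cells. Among the 667 other tested genes of chromosome 17, 12.4% were lower and 15.1% higher in control sgRNA cells, and 12.1% and 9.3% in Cd4 sgRNA cells. For the 11725 other tested genes elsewhere these shares were 13.6% and 15.8%, and 11.7% and 11.4%. Psmb9, Tap1, Psmb8 and Tap2 lie between H2-DMb1, which ends at 34160229, and H2-Ob, which starts at 34238905, and none of these 4 was lower in either group while both flanking genes were. Of all genes tested, 13.6% were lower in control sgRNA and 11.8% in Cd4 sgRNA cells. No call among 4 genes is near those shares, so this order is a description of place only.

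**Figure D3:**
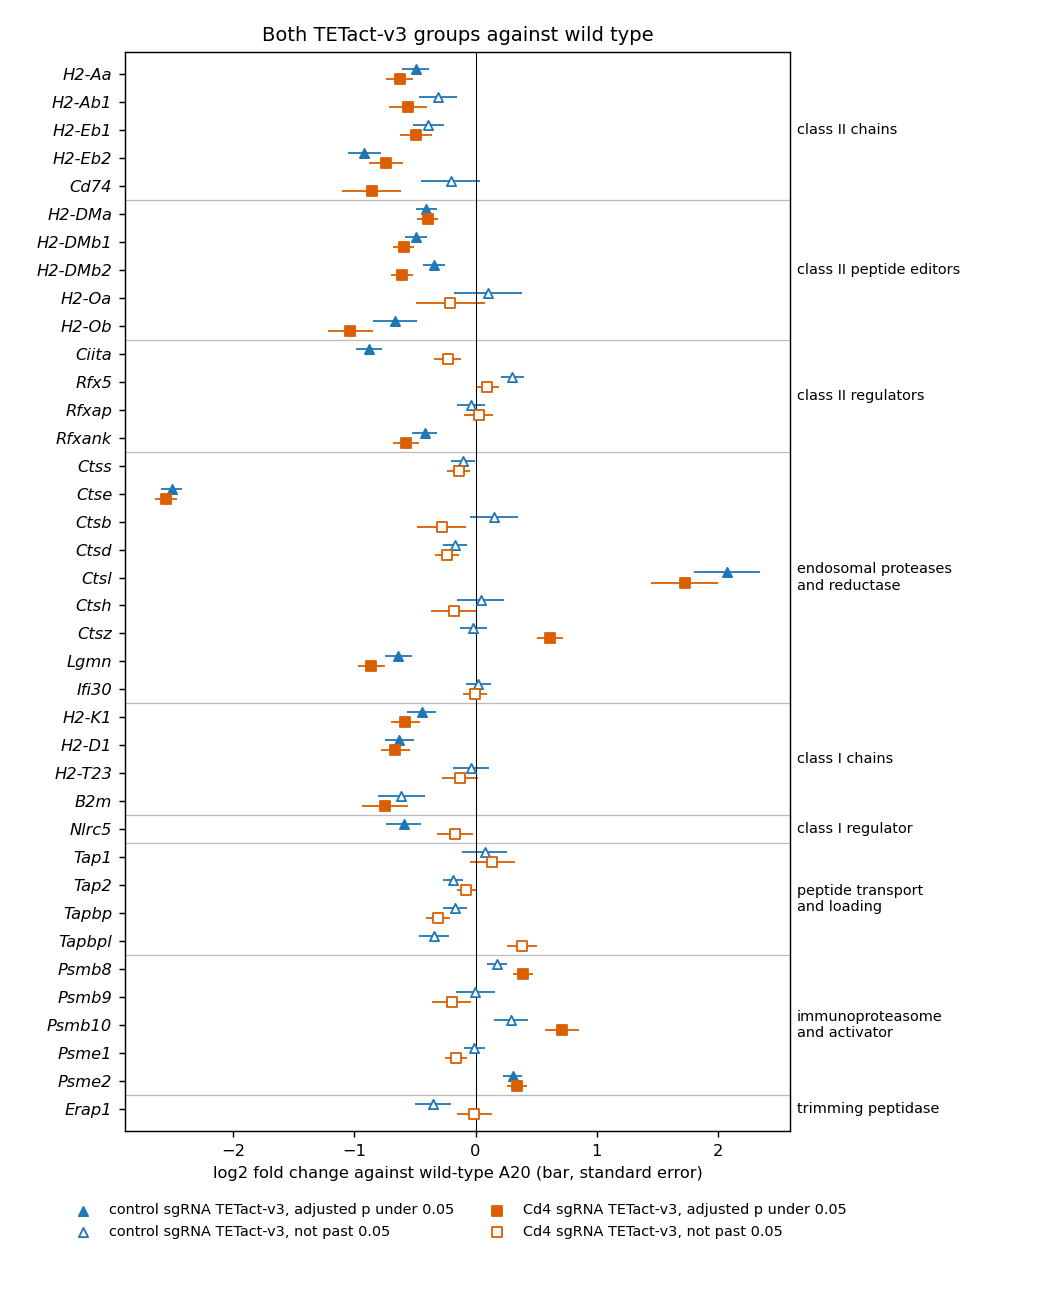
Log2 fold change against wild-type A20 of the 38 tested genes in control sgRNA TETact-v3 (triangles) and Cd4 sgRNA TETact-v3 (squares), with standard errors from edgeR as bars and filled symbols for an adjusted p under 0.05. Filled symbols lie left of 0 for 13 genes in control sgRNA and 15 in Cd4 sgRNA cells, and right of 0 for 2 and 5, with Ctse and Ctsl at the extremes.

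The number of calls against wild type moved with the library left out. Without control sgRNA replicate 1, the control sgRNA cells had 11 genes above and 18 below wild type, beside 32.7% and 30.9% of all genes, and without control sgRNA replicate 2, 5 and 29, beside 30.2% and 29.1%. A single library left in a group is assumed to vary like the other groups. In the same fits the Cd4 sgRNA cells had 7 genes higher and 23 lower without control sgRNA replicate 1, beside 32.5% and 26.9% of all genes, and 7 and 25 without replicate 2, beside 31.0% and 29.1%. Without wild-type replicate 1, 1 member was higher and 1 lower in control sgRNA cells, beside 2.0% and 1.17% of all genes, and without wild-type replicate 2, 1 and 2, beside 2.89% and 1.69%. In Cd4 sgRNA cells these fits called 1 higher and 1 lower without wild-type replicate 1, beside 1.08% and 0.659%, and 0 and 1 without replicate 2, beside 1.57% and 1.14%. Without Cd4 sgRNA replicate 1 the count in Cd4 sgRNA cells was 0 higher and 1 lower, beside 1.46% and 1.08%, and without replicate 2 also 0 and 1, beside 1.38% and 0.645%. Ctse was called in both comparisons with each library left out in turn, and Ctsl in control sgRNA cells.

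The direction of several control sgRNA values depended on 1 library. Without control sgRNA replicate 2, H2-Oa (log2 fold change -0.42), Ctsb (-0.19), Ctsh (-0.30) and Tap1 (-0.25) were lower in control sgRNA cells than in wild type, where the full fit had values above 0. Without control sgRNA replicate 1, H2-T23 (0.19) and Psmb9 (0.25) were higher, where the full fit had values below 0. All 6 of these passed the threshold in those fits (adjusted p of at most 0.0114) and none in the full fit.

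Cd4 sgRNA and control sgRNA cells share the activator and differ in the target of the sgRNA, so their comparison asks whether the antigen presentation genes depended on it. No member was called at an adjusted p under 0.05 by edgeR, and the smallest adjusted p was 0.0969. At an unadjusted p under 0.05, 6 members were higher and 2 lower in Cd4 sgRNA cells, beside 11.6% and 14.5% of all genes. The median log2 fold change over the 38 genes was -0.10. DESeq2 called 3 members higher, Ciita, Ctsz and Tapbpl, and 1 lower, Cd74, beside 4.6% and 7.69% of all genes. The study's own test, voomLmFit, called 0 and 0.

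Tapbpl had the largest positive value. It had 26.2 and 21.3 CPM in control sgRNA and 39.5 and 39.4 CPM in Cd4 sgRNA libraries, with wild type at 31.2 and 29.1 CPM. Its log2 fold change of 0.73 (standard error 0.12) had an adjusted p of 0.0969, and Tapbpl lies on chromosome 6 from 125223927 to 125231860, the chromosome of Cd4. Ciita differed by 0.65 on the log2 scale (standard error 0.11) and Ctsz by 0.63 (standard error 0.11), each with an adjusted p of 0.0969, and the groups did not overlap in either gene. Nlrc5 differed by 0.42 (adjusted p = 0.152) and Psmb10 by 0.42 (adjusted p = 0.147). In the other direction Cd74 had the largest value, -0.65 (standard error 0.24, adjusted p = 0.169). The class II chains had log2 fold changes from -0.65 to 0.18 and the class I chains from -0.14 to -0.03.

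This comparison moved most with the control sgRNA libraries. Without control sgRNA replicate 1, 8 members were higher and 22 lower in Cd4 sgRNA cells, beside 30.2% and 30.3% of all genes, and without replicate 2, 8 were higher and 2 lower, beside 12.1% and 12.9%. Ciita, Ctsz, Tapbpl, Nlrc5, Psmb8 and Psmb10 were higher in both fits, with log2 fold changes of 0.76 and 0.55 for Ciita, 0.78 and 0.50 for Ctsz, 0.89 and 0.59 for Tapbpl, and 0.45 and 0.39 for Nlrc5. Cd74 (-0.99 and -0.21) and H2-DMb2 (-0.31 and -0.21) were lower in both. B2m was -0.41 without replicate 1 and 0.20 without replicate 2, and Tap1 -0.20 and 0.40, so that these 2 genes were called in opposite directions by the choice of the control library.

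**Figure D4:**
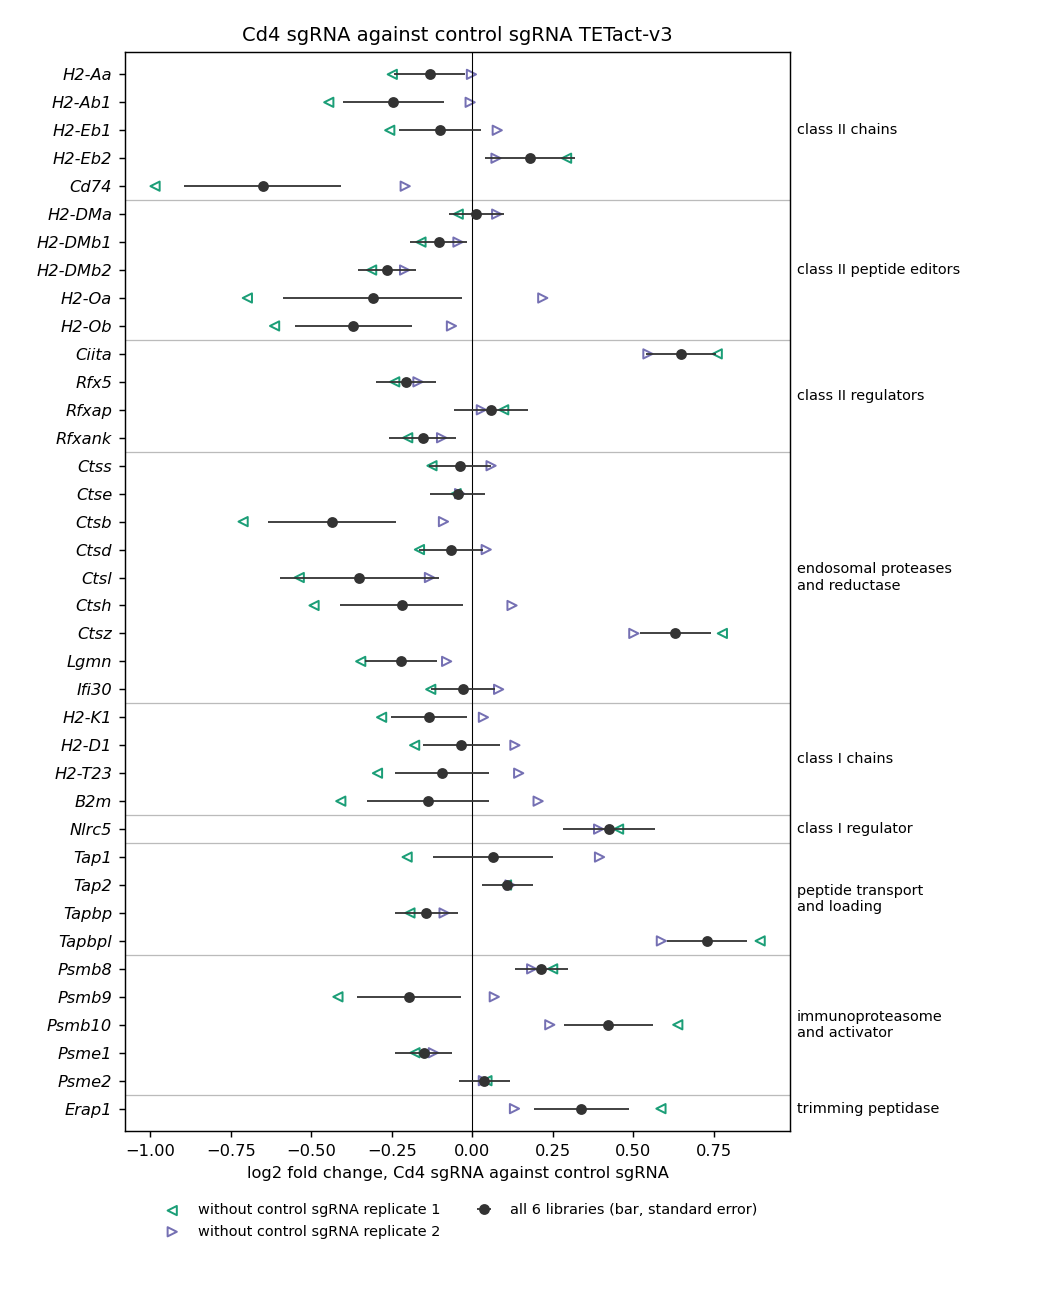
Log2 fold change of the 38 tested genes between Cd4 sgRNA and control sgRNA TETact-v3 cells, with all 6 libraries (circles, standard errors from edgeR as bars) and without control sgRNA replicate 1 or 2 (left and right triangles). Ciita, Ctsz and Tapbpl lie between 0.50 and 0.89 in all 3 fits, while B2m and Tap1 change sign with the library left out.

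A wider list of 67 genes of the pathway was read beside these, of which 61 were tested. In control sgRNA cells 8 were higher and 13 lower than in wild type, that is 13.1% and 21.3%, beside 15.7% and 13.6% of all genes. In Cd4 sgRNA cells 9 were higher and 13 lower, that is 14.8% and 21.3%, beside 11.3% and 11.8%. The median log2 fold change was -0.11 and -0.10. Between the transduced groups 0 were called. Among 14 other MHC and MHC-like genes, 3 were lower in control sgRNA and 6 in Cd4 sgRNA cells and 0 higher in either. H2-Q4, a non-classical class I gene, had 145 and 138 CPM in wild type, 84.7 and 85.6 CPM in control sgRNA and 93.5 and 96.2 CPM in Cd4 sgRNA libraries, and fell by 0.73 (adjusted p = 0.00258) and 0.57 (adjusted p = 0.00688).

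Transcription factors of these genes moved in both directions. Spi1 (PU.1), a factor of myeloid and B cells, had 135 and 139 CPM in wild type, 78.7 and 75.4 CPM in control sgRNA and 109 and 108 CPM in Cd4 sgRNA libraries, and fell by 0.83 (adjusted p = 0.00173) and by 0.33 (adjusted p = 0.0304). Irf4, which drives plasma cell differentiation, had 33.3 and 34.5 CPM in wild type, 93.9 and 145 CPM in control sgRNA and 114 and 104 CPM in Cd4 sgRNA libraries, and rose by 1.82 (adjusted p = 0.00275) and 1.69 (adjusted p = 0.00459). Bcl6, the germinal centre repressor, had 333 and 344 CPM in wild type, 209 and 246 CPM in control sgRNA and 161 and 150.3 CPM in Cd4 sgRNA libraries. It fell by 0.57 (adjusted p = 0.0115) and 1.12 on the log2 scale (adjusted p = 0.00218). Of 14 such factors, 2 were higher and 3 lower in control sgRNA, and 3 higher and 4 lower in Cd4 sgRNA cells.

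Of 8 chaperones and peptidases of the cytosol and endoplasmic reticulum on the wider list, 3 were higher and 0 lower in each group, namely Thop1, Lnpep and Npepps, while the peptidases Tpp2 (log2 fold changes -0.25 and 0.02) and H13 (-0.27 and -0.22) were not called. Thop1, a cytosolic peptidase that destroys class I peptides, had 112 and 116 CPM in wild type, 272 and 212.5 CPM in control sgRNA and 262 and 293 CPM in Cd4 sgRNA libraries, and rose by 1.09 (adjusted p = 0.00369) and 1.28 on the log2 scale (adjusted p = 0.00314). Lnpep, an aminopeptidase of endosomes, rose from 36.3 and 36.2 CPM to 59.8 and 69.7 CPM in control sgRNA (adjusted p = 0.00346) and to 52.3 and 50.3 CPM in Cd4 sgRNA cells (adjusted p = 0.0199). Npepps, a cytosolic aminopeptidase, rose from 75.2 and 72.9 CPM to 119.5 and 114 CPM (adjusted p = 0.00353) and to 90.9 and 90.03 CPM (adjusted p = 0.0479). Cst3, an inhibitor of cysteine cathepsins, fell from 102 and 103 CPM to 60.8 and 68.2 CPM (adjusted p = 0.00434) and to 55.9 and 55.4 CPM (adjusted p = 0.00261). Cd86, a costimulatory ligand, rose from 7.62 and 6.59 CPM to 9.36 and 10.2 CPM in control sgRNA (adjusted p = 0.0486) and to 14.7 and 15.8 CPM in Cd4 sgRNA cells (adjusted p = 0.00493). No other of the 5 costimulatory and inhibitory ligand or receptor genes on the wider list was called as a rise. Cd40 (log2 fold change -0.56, adjusted p = 0.0173) and Icosl (-0.71, adjusted p = 0.00616) fell with the control sgRNA. Cd274, which encodes the inhibitory ligand PD-L1, fell with the Cd4 sgRNA (-1.345, adjusted p = 0.0141), and Cd80 was called in neither group.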

How the data were processed

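RNA-seq of 6 A20 libraries was analysed from the deposited gene counts, which the authors made by aligning 66-base paired reads to mm10 with Rsubread and counting over its inbuilt RefSeq annotation. Strand and multi-mapping settings are not given in the sources used here. Genes with no or a duplicated RefSeq symbol, mitochondrial genes, rRNA and genes of unclassified type were removed (5.01% to 13.9% of counts), low counts were filtered with filterByExpr and libraries were scaled by TMM. All 3 groups were fitted together by edgeR's quasi-likelihood test (R 4.3.3, edgeR 4.0.16, limma 3.58.1), with p-values adjusted by Benjamini-Hochberg over 12430 genes and a threshold of 0.05. A count of 3 was the floor. The scripts were tested on simulated data. The members and gene lists were chosen with earlier results of these data known. Values in every library are given for called members (up to 12 per comparison by smallest p), the regulators and the main chains, and for 5 wider pathway genes per comparison, while other members are given by range. Alternatives were other scalings, filters, tools (voomLmFit, DESeq2 1.42.0), a replicate block, thinning, summed genes of similar sequence and leaving out each library. Replicate numbers did not pair the samples.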

Additional observations from a re-analysis of the deposited data

How the results depend on the processing

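With only the compared groups fitted, control sgRNA cells had 1 member higher and 6 lower than wild type, and 5 wider genes higher. In that fit 7.97% of all genes were higher and 6.53% lower. Cd4 sgRNA cells had 7 members higher and 25 lower, and 19 wider genes higher and 27 lower. In that fit 31.4% of all genes were higher and 30.7% lower. Without a low-count filter, 1 member was higher in control sgRNA cells (12% of all genes), and between the transduced groups 3 members were higher (1.36%), with 4 wider genes higher and 1 lower. DESeq2 called 3 members higher and 1 lower there (4.6% and 7.69%), and 6 wider genes higher and 7 lower. voomLmFit called 5 wider genes higher in control sgRNA cells (12.4%).

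With a replicate block, 1 member was higher and 11 lower in control sgRNA cells (12.3% and 10.9% of all genes), 4 and 12 in Cd4 sgRNA cells (8.56% and 9.0%), and 0 between them. Deviations of same-numbered libraries correlated at -0.0322, 0.0201 and -0.137. The crossed pairing, chosen after seeing the data, called 1 and 15 in control sgRNA cells (14.8% and 13.4%).

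Leaving out 1 library gave 1 to 11 members higher and 1 to 29 lower in control sgRNA cells, 0 to 7 and 1 to 25 in Cd4 sgRNA cells, and 0 to 8 and 0 to 22 between them. For wider genes these ranges were 1 to 18 and 1 to 30, 0 to 19 and 1 to 27, and 0 to 24 and 0 to 28. The range of the log2 fold change included both signs for 12 members in control sgRNA, 3 in Cd4 sgRNA cells and 13 between them. Values past the threshold with the sign opposite to the full fit were seen in control sgRNA cells for H2-Oa (-0.42 to 0.52), Ctsb (-0.19 to 0.45), Ctsh (-0.30 to 0.34), H2-T23 (-0.27 to 0.19), Tap1 (-0.25 to 0.37) and Psmb9 (-0.27 to 0.25), and between the transduced groups for B2m (-0.41 to 0.20) and Tap1 (-0.20 to 0.40). The cause was not tested. Of the calls against wild type, 7 of 15 in control sgRNA and 16 of 20 in Cd4 sgRNA cells were kept in every alternative that used all libraries of the groups compared. In control sgRNA cells, the calls of H2-Aa, H2-DMa, Rfxank and Nlrc5 were lost only when the compared groups were fitted alone. Those of H2-K1 and H2-DMb2 were lost in that fit, with a replicate block and with library size scaling. The H2-Ob call was lost in the first and last of these fits. The Psme2 call was lost without a low-count filter, with the compared groups alone and with either replicate block. The calls lost in Cd4 sgRNA cells were those of H2-Ab1, H2-Eb1, Cd74 and Psme2. Thinning to the smallest library lost the H2-Ab1 call there.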
